A study of Schizosaccharomyces pombe with 384 samples.

Results

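The fission yeast strain that lacks ers1 was compared with wild type at the level of transcripts. Members were chosen by their label alone: the 4 libraries annotated as knockout strain SPCC1393.05, which is the identifier of ers1, and the 8 annotated as wild type, out of 384 libraries in the series. The series holds 94 knockout strains of Schizosaccharomyces pombe in 4 replicates each, measured by sequencing the 3′ ends of messenger RNA, so that each molecule gives reads near its end regardless of its length. All strains came from the Bioneer haploid deletion collection or were grown beside it in YES, a rich medium with added adenine, histidine, leucine, uracil and lysine, at 32 °C in 96-well plates. No further treatment was given to either group.

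The ers1Δ group was a single strain in which the reading frame was replaced, labelled with well F8 in all 4 replicates, so it stands for 1 isolate of the collection and not for independently made deletions. The wild-type group filled wells A1 and A2, and 6 of its 8 libraries carry the words knockout strain in their description although the strain field reads wt1 or wt2. They were used as wild type according to that field. The labels give neither the mating type nor other alleles of either group. The mating-type cassette genes looked at, mat1-Mc, mat1-Mi, mat3-Mc and mat3-Mm, had 0 reads in all 12 libraries, and so did ura4. These genes therefore did not tell the groups apart, and the mating type could not be checked from them. Nothing in the labels says that replicates came from separate colonies, and the p-values below measure the spread between these samples.

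Ers1 acts in the RNA interference pathway of fission yeast. In that pathway, transcripts from the repeats that flank the centromeres are copied into double-stranded RNA by the polymerase Rdp1, cut into small RNAs by Dicer (Dcr1), and loaded onto Argonaute (Ago1) in the RITS complex. RITS recruits the histone H3 lysine 9 methyltransferase Clr4, whose mark binds the HP1 protein Swi6, and Ers1 links the polymerase complex to this chromatin. Cells without RNA interference are known for losing silencing of the centromeric repeats, while silencing of the mating-type region and the chromosome ends depends on it less.

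Sequencing depth was 1478173 to 1765700 reads on genes per ers1Δ library and 1578511 to 2126622 per wild-type library, against 1337386 to 2659644 for the other knockouts. Levels are given in CPM, the reads of a transcript scaled to a common library size, as the authors computed them. In these 12 libraries 3 reads correspond to 1.38 to 2.27 CPM. One wild-type library, that of well A2 labelled wt2 with replicate number 2, stood apart in stress genes: the summed level of a 14-gene stress list was 4634 CPM there, 1817 to 2943 CPM in the other 7 wild-type libraries and 6217 to 12099 CPM in ers1Δ. Counts led with below are therefore also given without it where they move by more than 1.5 times.

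The deleted gene was looked at first, as a check of the label, and it was not lower in the libraries labelled ers1Δ. Reads assigned to ers1 (III:801149-804543, plus strand) amounted to 8.45, 11.6, 16.5 and 12.2 CPM in the 4 libraries labelled ers1Δ, and to 4.78, 9.69 and 14.4 CPM (lowest, median and highest) in wild type. The ranges overlapped, with the mean of the deletion above that of wild type (log2 fold change 0.38, SE 0.27, limma p = 0.18, two-sided exact permutation p = 0.224). The transcript as annotated in RefSeq (build ASM294v3) runs 42 bases past the reading frame and overlaps the convergent gene ipi1, so 3′ reads assigned to ers1 can lie outside the replaced part. They check neither the presence nor the absence of the deletion. The same gene had 7.89 to 18.2 CPM in the strains of the 4 neighbouring wells.

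The annotated genes within 5 kb of ers1 were examined next. Pma2, a plasma membrane proton pump encoded at III:793179-796301, had 9.58, 0.582, 7.99 and 9.44 CPM in ers1Δ, from 17, 1, 15 and 17 reads, and at most 0.583 CPM, a single read, in wild type. The second ers1Δ replicate lay within the wild-type range and the other 3 far above it. On log2(CPM + 1), a scale that keeps transcripts near 0, the difference was 2.50 (SE 0.41, two-sided exact permutation p = 0.00404). Pma2 was also higher than in lem2Δ (log2 fold change 2.22, limma adjusted p = 0.020) and ranked 3 of the 94 strains. That fit left out values under the study's cutoff. The second ers1Δ replicate and the lem2Δ library at 0 CPM therefore did not enter it. Ipi1, a subunit of a pre-ribosome processing complex, had 13.5, 20.9, 18.7 and 37.8 CPM against 26.8, 34.2 and 51.6 CPM in wild type. Its groups overlapped, and its log2 fold change of -0.71 passed the thresholds only with the replicate number as a block (limma adjusted p = 0.11 without the block and 0.036 with it). It was the lowest of the 94 strains for this gene. The histone chaperone gene spt2, the kinetochore gene fta4, rps1501 and the sparsely read mug4 did not pass.

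Transcripts of the centromeric repeats were higher in ers1Δ than in wild type. SPNCRNA.231, a noncoding RNA in the repeats of centromere I (I:3761023-3762114, plus strand), was found with 10.7, 9.31, 4.80 and 3.33 CPM in ers1Δ, from 19, 16, 9 and 6 reads. Of the 8 wild-type libraries 7 had 0 reads and 1 had a single read. All 4 ers1Δ libraries lay above all wild-type libraries, which for 4 against 8 gives the smallest possible two-sided exact permutation p of 0.00202. The 50 reads against 1 correspond to a ratio of 97.0 with a 95% exact interval of 16.6 to 3905, which covers counting error only. The difference on log2(CPM + 1) was 2.81 (SE 0.24).

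SPNCRNA.359 in the repeats of centromere II (II:1602773-1604997, plus strand) had 5.63, 6.98, 7.99 and 8.89 CPM in ers1Δ and 1.17, 1.45 and 4.042 CPM (lowest, median and highest) in wild type. The groups did not overlap, and the highest wild-type value belonged to the library that stood apart in stress genes. It was 4.43-fold higher by the fit (log2 fold change 2.146, SE 0.29, limma adjusted p = 0.0012), and the 53 against 25 reads gave a ratio of 4.11 with an interval of 2.51 to 6.90. SPNCRNA.373, at the other side of centromere II (II:1640114-1641543), had 0.563, 0.582, 4.26 and 1.67 CPM in ers1Δ and no read in any wild-type library. Its 13 reads against 0 put it at least 8.40-fold higher when 3 reads over the whole wild-type group are taken as the floor (two-sided exact permutation p = 0.00202). The 13 reads were spread as 1, 1, 8 and 3 over the ers1Δ replicates. The p does not account for its choice among 27 centromeric noncoding RNAs. SPNCRNA.360 had 5 reads against 0, at least 3.23-fold on the same floor, and was at 0 in ers1Δ replicate 4.

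The sequences of the 2 transcripts that carry this result are shown because their repeat content decides which reads can be placed. They were read from the RefSeq genome ASM294v3, and capitals mark bases inside a 75-base window, the read length, that occurs once in that genome. The stretch of SPNCRNA.231 is chrI:3761077-3761376 and that of SPNCRNA.359 is its last 200 bases, chrII:1604798-1604997, both on the plus strand.
SPNCRNA.231: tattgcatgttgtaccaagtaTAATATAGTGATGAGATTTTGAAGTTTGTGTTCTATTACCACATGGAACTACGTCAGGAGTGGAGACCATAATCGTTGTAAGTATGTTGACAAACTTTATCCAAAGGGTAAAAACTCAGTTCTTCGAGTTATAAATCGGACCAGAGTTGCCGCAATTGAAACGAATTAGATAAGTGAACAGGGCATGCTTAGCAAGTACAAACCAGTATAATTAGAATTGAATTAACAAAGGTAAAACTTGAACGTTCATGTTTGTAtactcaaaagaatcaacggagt
SPNCRNA.359: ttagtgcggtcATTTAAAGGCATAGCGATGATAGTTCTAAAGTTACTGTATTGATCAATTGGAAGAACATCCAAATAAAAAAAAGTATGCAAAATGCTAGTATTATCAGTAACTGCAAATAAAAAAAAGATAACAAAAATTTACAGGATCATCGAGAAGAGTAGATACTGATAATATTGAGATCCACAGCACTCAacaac
Of all windows of SPNCRNA.231, 28.4% occur once, in stretches of 257, 127 and 132 bases, but none of them lies in its last 300 bases. For SPNCRNA.359 the share is 34.4%, and 184 bases of unique sequence end 5 bases before the transcript does. The study's plots speak of reads assigned uniquely, but how reads with several positions were treated is not described further in the sources used here, and the gene models counted were those of build ASM294v2.

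**Figure D1:**
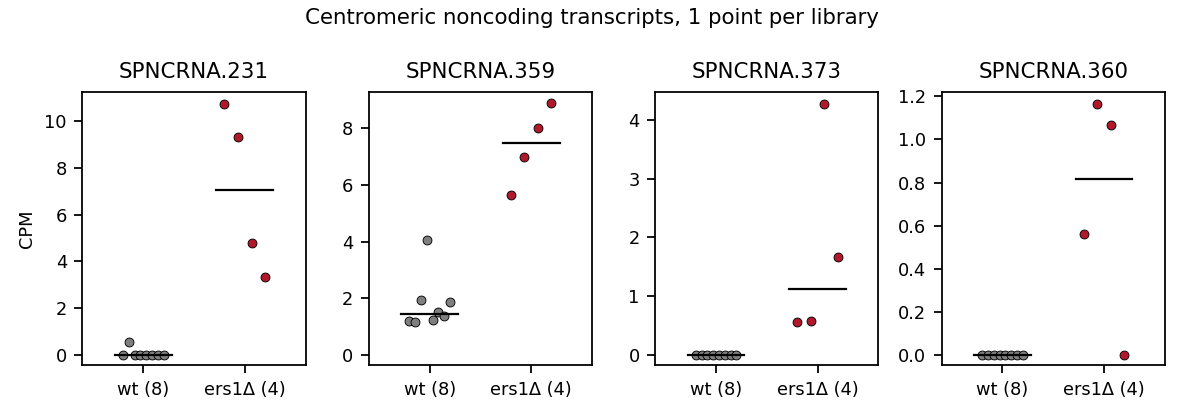
Level in CPM (vertical axis, linear) of 4 centromeric noncoding RNAs in the 8 wild-type (grey) and 4 ers1Δ (red) libraries, 1 point per library with the group median as a line. SPNCRNA.231 reached 3.33 to 10.7 CPM in ers1Δ and at most 0.583 CPM in wild type, and SPNCRNA.373 had no wild-type reads.

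The annotation lists 27 noncoding RNAs inside the centromeres, and most were not detectable. Of these, 8 had a read in ers1Δ and 5 in wild type, 17 had none in either group, and 22 hold no unique window in their last 300 bases. Per library, 8 had more reads in ers1Δ and 2 had fewer. Summed over all 27, the ers1Δ libraries held 32, 33, 36 and 29 reads, and the wild-type libraries 2 to 7. Without SPNCRNA.231 the sums were 13, 17, 27 and 23 against 2 to 7. With SPNCRNA.359 also left out, 3, 5, 12 and 7 reads remained against 0 or 1. The order of the groups therefore held in each of these 3 sums, with no overlap. At these depths a transcript with 0 reads may still be present below the level of a few reads per library. In bulk RNA, more cells with the transcript and more transcript per cell cannot be told apart.

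Of the 94 strains, ers1Δ had the highest mean of SPNCRNA.231, SPNCRNA.359 and SPNCRNA.373. SPNCRNA.231 had 0 reads in 346 of the 372 libraries of other knockouts and at most 2 reads in the rest, and the next strain, air1Δ, had a mean of 0.347 CPM against 7.04 CPM (SD 3.53, n = 4) in ers1Δ. The strain mean of log2(CPM + 1) was 2.84 above the mean of the other 93 strains, which is given without a test because most of these strains were at 0. SPNCRNA.359 was 1.51 above the mean of the others (limma adjusted p = 0.043, set against the spread between strains and not that of the ers1Δ replicates), followed by cdt2Δ with 4.74 CPM against 7.37 CPM. SPNCRNA.360, SPNCRNA.371, SPNCRNA.372 and SPNCRNA.373 also had their highest strain mean in ers1Δ, at 0.411 to 1.77 CPM. The neighbouring wells held xlf1Δ, spt7Δ, cyb502Δ and pek1Δ, with 0 reads of SPNCRNA.231 in any of their libraries.

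**Figure D2:**
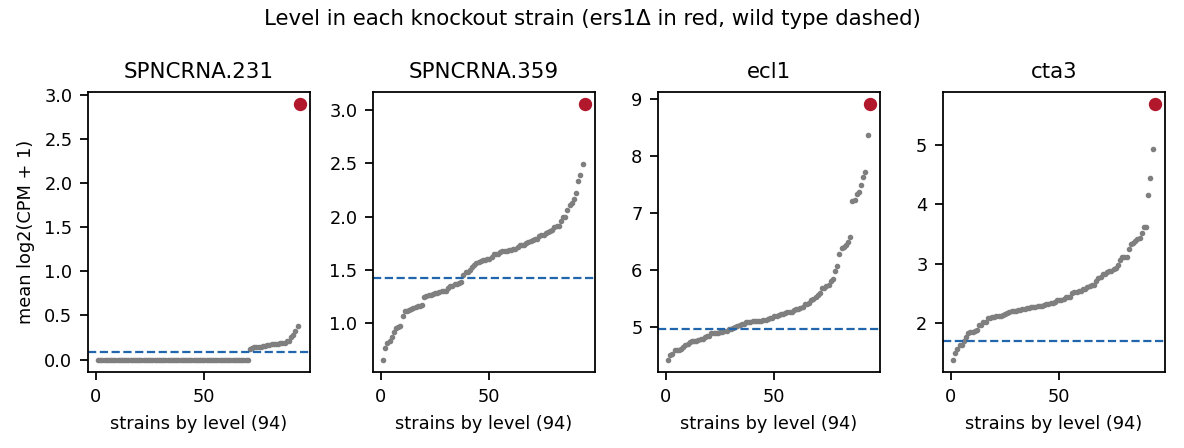
Mean log2(CPM + 1) over the 4 replicates of each of the 94 knockout strains (grey points, sorted by level), with ers1Δ in red and the wild-type mean as a dashed line, for 2 centromeric RNAs and 2 protein-coding genes. The ers1Δ strain was the highest of the 94 for each of the 4, and SPNCRNA.231 reached at most 0.38 in the other 93 strains.

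Other silenced or neighbouring regions were checked as well. Of the subtelomeric helicase genes, tlh2 had 1.67 to 3.73 CPM in ers1Δ and 0 to 3.59 CPM in wild type, and tlh1 had 1 read in 12 libraries. The 13 Tf2 retrotransposon genes had too few reads to be tested. Of 153 transcripts tested within 50 kb of a centromere, 3 were higher and 2 lower, that is 1.96% and 1.31%, against 3.7% and 1.29% of all transcripts tested, where higher and lower mean a shift past 0.6 on the log2 scale in that direction with a limma p up to 0.005. These counts were 11 and 0 without the authors' scaling, 1 and 2 against well A1 alone, 1 and 0 against well A2 alone, 2 and 3 without ers1Δ replicate 1, 1 and 3 without replicate 3, and 3 and 5 without the wt2 library of well A2 numbered 4. The higher ones were SPNCRNA.359, SPNCRNA.935 and SPAC15E1.02c, and the lower ones lys1, a lysine synthesis gene, and bud6, an actin regulator. SPNCRNA.935 lost its call with the replicate block (limma adjusted p = 0.10), and without ers1Δ replicate 1, 2 or 3, SPAC15E1.02c without replicate 1 or 3, and bud6 without replicate 2 or 3. Of 140 transcripts tested within 100 kb of a chromosome end, 16 were higher (11.4%) and 7 lower (5%), or 23 and 1 without the authors' scaling and 12 and 2 against well A2 alone. Among these were ecl1, the putative aldo-keto reductase gene SPAC977.14c and SPCC569.05c on the higher side, and pho84 and pho1 on the lower side.

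Across the transcriptome the ers1Δ strain differed moderately from wild type. The thresholds of 0.6 and 0.005 are those of the study, and transcripts past both are called altered here. Of 5510 transcripts tested, 204 were higher in ers1Δ (3.7%) and 71 lower (1.29%), 275 in all, of which 222 had an adjusted p under 0.05 (162 higher, 60 lower). The latter number was 86 without ers1Δ replicate 1 and 137 without replicate 3. The 275 altered transcripts put ers1Δ at rank 25 of the 94 strains, which ranged from 6 to 1189 altered transcripts with a median of 121.5. The 4 wild-type libraries of each well differed in 9 of 5484 transcripts by the same thresholds. Among the altered transcripts, 127 of the higher and 42 of the lower had no overlap between the groups, where over all transcripts 165 (2.99%) lay wholly above and 151 (2.74%) wholly below wild type. Fold changes were asymmetric, with 132 higher and 17 lower transcripts changed at least 2-fold. The split depends on scaling: centring each library on its median gave 182 higher and 103 lower, and leaving out the authors' scaling, which shifted the median of all transcripts by 0.29, gave 499 and 8.

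**Figure D3:**
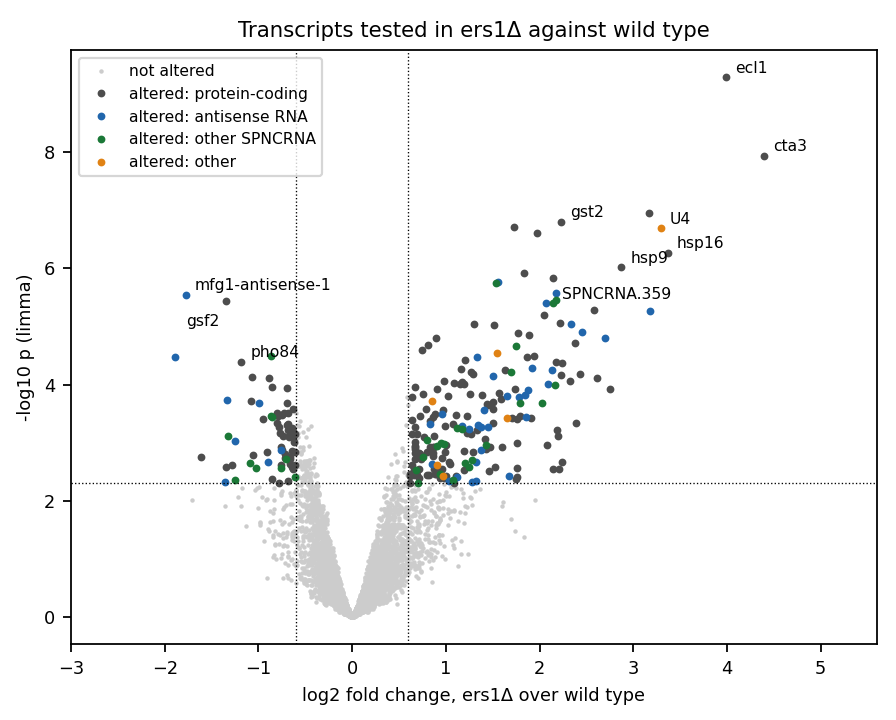
Log2 fold change of ers1Δ over wild type (horizontal axis) against -log10 of the limma p (vertical axis) for the 5510 transcripts tested, with altered transcripts coloured by class and dotted lines at the thresholds. The higher side held 204 altered transcripts and reached 4.40 for cta3, and the lower side held 71 and reached -1.89.

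Ecl1 and cta3 had the 2 smallest p-values of all transcripts tested. Ecl1 (III:2354974-2358570), a small protein known for extending chronological lifespan, had 662.6, 683, 399 and 289 CPM in ers1Δ and 22.1, 28.3 and 50.8 CPM (lowest, median and highest) in wild type. All 4 values were several times above the wild-type range, and the fitted difference was 15.9-fold (log2 fold change 3.99, SE 0.26, adjusted p = 2.9e-06). Cta3 (II:607214-611989), a P-type ATPase that moves cations out of the cell, had 78.9, 37.8, 55.4 and 39.4 CPM against 0.941, 2.16 and 4.49 CPM. Here too the groups were far apart, with a log2 fold change of 4.40 (SE 0.34, adjusted p = 3.2e-05), equal to 21.1-fold. The gene nnk1, which overlaps ecl1, and the antisense RNA of cta3 were not altered (log2 fold changes 0.11 and -0.06). In the other knockouts both genes were lower than in ers1Δ, by 3.50 for ecl1 (adjusted p = 0.027) and 3.19 for cta3 (adjusted p = 0.0027) on log2(CPM + 1), with dad3Δ next for ecl1 and cdt2Δ next for cta3.

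The small heat-shock protein genes hsp16 and hsp9 were higher as well. Hsp16 had 6891, 5115, 3527 and 3051 CPM in ers1Δ and 246, 366 and 1369.8 CPM in wild type, the highest again in the library that stood apart. The lowest ers1Δ value was still above it, and the log2 fold change was 3.37 (SE 0.38, adjusted p = 3.7e-04). Hsp9, another small heat-shock protein, had 2075, 1270.2, 1418 and 1129 CPM against 122, 161 and 579 CPM (log2 fold change 2.87, SE 0.34, adjusted p = 5.9e-04). Both groups were separated for hsp9 as well. A further gene of this kind, hsp20, had 66 to 69 reads per library in ers1Δ and 26 to 71 in wild type and was not called. Of the 14 genes in the stress list, 7 were higher and 0 lower, beside 3.7% and 1.29% of all transcripts: gst2, hsp16, hsp9, zym1, hsp104, gpx1 and ntp1. The list was chosen with earlier results of these data known, so these shares are a description. Over the whole list 11 genes were above 0 and 3 below. The median log2 fold change of the list was 0.98, where it was 0.02 over all transcripts. Leaving out 1 library at a time gave 6 to 8 higher.

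Among those 7, gst2, a glutathione S-transferase, had 702, 455, 368 and 309 CPM against 74.0, 88.4 and 144 CPM (log2 fold change 2.23, SE 0.23, adjusted p = 1.9e-04). Zym1, a metallothionein, had 437, 215, 377 and 259 CPM against 32.9, 66.0 and 145 CPM (log2 fold change 2.22, SE 0.32, adjusted p = 0.0020). Neither gene overlapped between the groups. The glutathione peroxidase gene gpx1 rose by 0.98, without overlap. Ntp1, the neutral trehalase, rose by 0.98 with an overlap, an adjusted p of 0.063, and no call in 9 of the 12 fits that each left out 1 library. The catalase gene ctt1 averaged 91.9 CPM with an SD of 44.3 and did not pass (adjusted p = 0.081).

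Chaperones were put together as a list of 22 genes after their values had been seen. Of these, 6 were higher and 0 lower, namely hsp16, hsp9, hsp104, ssa1, fes1 and hsp78, where 3.7% of all transcripts were higher and 1.29% lower. The list's median was 0.20. The disaggregase gene hsp104 had 169, 200.1, 165 and 119 CPM in ers1Δ and 15.6, 38.1 and 87.2 CPM in wild type, with no overlap (log2 fold change 2.18, SE 0.37, adjusted p = 0.0052). Ssa1, an Hsp70, had 556, 612.999, 509 and 278 CPM against 34.1, 50.4 and 323 CPM. The value of ers1Δ replicate 4 lay under the wild-type library that stood apart, and the log2 fold change was 2.75 (SE 0.52, adjusted p = 0.0091). Fes1, an exchange factor for Hsp70, and the mitochondrial disaggregase gene hsp78 rose by 1.075 and 1.22 without overlap. The abundant hsp90 had 1262 to 2002 CPM against 1074 to 1953 CPM, and the second cytosolic Hsp70, ssa2, changed by 0.06. The wild-type library that stood apart had the highest wild-type value of hsp16, hsp9, ssa1, fes1 and hsp78 and the lowest of hsp104. Hsp16, hsp9 and hsp104 are also members of the stress list.

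**Figure D4:**
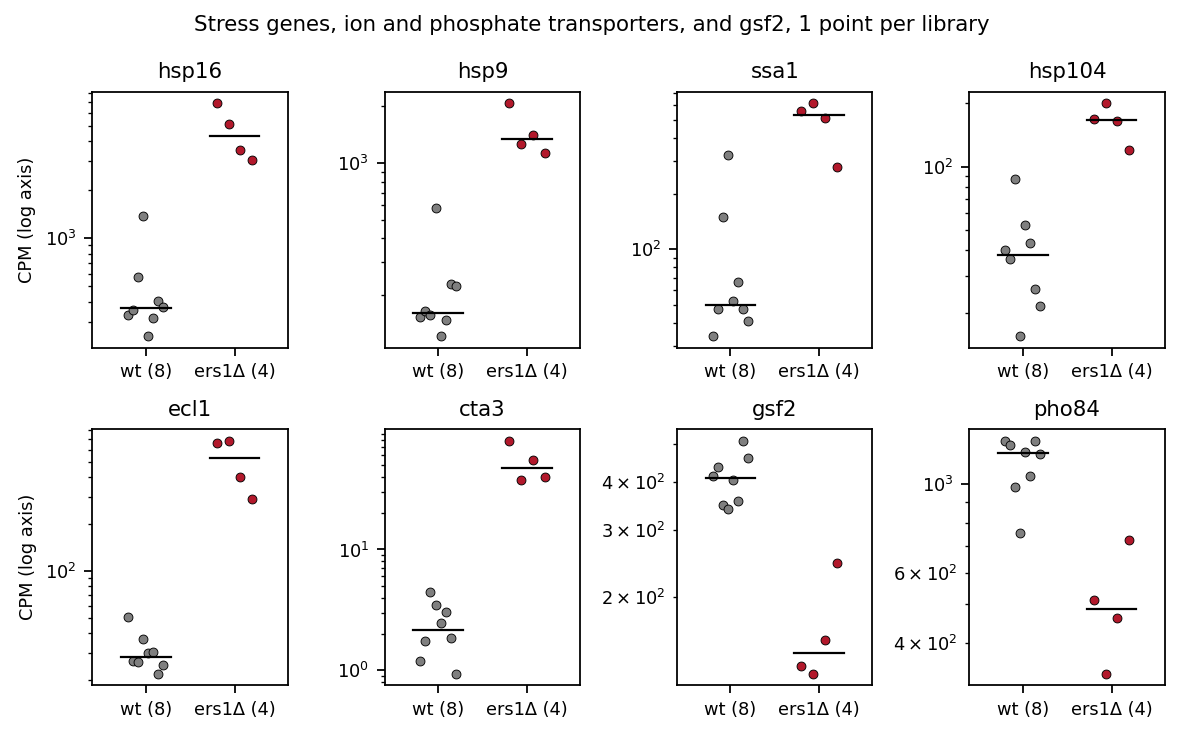
Level in CPM (logarithmic vertical axis) of 8 genes in the 8 wild-type (grey) and 4 ers1Δ (red) libraries, 1 point per library with the group median as a line. Ecl1 and cta3 were above wild type in all 4 ers1Δ libraries, ssa1 overlapped in 1 wild-type library at 323 CPM, and gsf2 and pho84 were below wild type in all 4.

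Upstream sequence was searched for elements of the 2 stress pathways known in fission yeast. The heat-shock factor binds inverted repeats of GAA, searched here as GAANNTTC or TTCNNGAA, and the stress factor Atf1 binds TGACGT, searched as TGACGT or ACGTCA, both in the 250 bases before the annotated transcript start. Promoters of hsp16, ssa1 and ntp1 are shown as examples of a match (RefSeq ASM294v3, 5′ to 3′ on the gene's strand), with matched bases in capitals. They lie at chrII:2660993-2661242, minus strand, chrI:2297965-2298214, minus strand, and chrII:206331-206580, plus strand.
hsp16: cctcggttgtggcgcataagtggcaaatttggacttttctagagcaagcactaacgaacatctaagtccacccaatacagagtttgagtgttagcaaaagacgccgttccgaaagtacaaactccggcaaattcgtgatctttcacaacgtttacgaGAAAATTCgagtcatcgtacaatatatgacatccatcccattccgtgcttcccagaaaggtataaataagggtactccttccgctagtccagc
ssa1: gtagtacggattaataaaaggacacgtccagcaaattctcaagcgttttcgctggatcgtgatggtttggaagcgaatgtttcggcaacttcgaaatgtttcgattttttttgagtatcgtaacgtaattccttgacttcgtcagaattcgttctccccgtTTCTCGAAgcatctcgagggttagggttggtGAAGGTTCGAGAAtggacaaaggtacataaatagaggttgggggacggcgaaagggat
ntp1: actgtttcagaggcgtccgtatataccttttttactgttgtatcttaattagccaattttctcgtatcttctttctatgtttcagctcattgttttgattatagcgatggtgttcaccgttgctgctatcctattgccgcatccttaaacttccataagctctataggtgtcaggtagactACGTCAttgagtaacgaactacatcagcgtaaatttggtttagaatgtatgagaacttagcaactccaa
The heat-shock pair was present in 852 of 5112 promoters (16.7%), in 21 of the 142 protein-coding genes called higher (14.8%) and in 14 of the 22 chaperone genes (63.6%), but in only 2 of the 6 chaperone genes called higher, hsp16 and ssa1. The longer form with a further repeat, GAANNTTCNNGAA or TTCNNGAANNTTC, was found in 21 promoters (0.411%), ssa1 and ssa2 among them. TGACGT or its complement was present in 282 promoters (5.52%) and in 16 of the 142 (11.3%), ntp1, gst3 and pmp20 among these. Neither motif was found before ecl1, cta3, gst2 or zym1 in this window. A match is a description of the letters and not a binding site.

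Several other altered transcripts were named on condition that the groups did not overlap, so the lack of overlap is no further result. Over all transcripts 2.99% lay wholly above wild type. U4, the spliceosomal RNA, had 118, 41.3, 76.2 and 66.1 CPM against 4.49, 6.56 and 13.4 CPM (log2 fold change 3.30, SE 0.34, adjusted p = 1.9e-04). The ers1Δ strain was the highest of the 94 for this RNA, which is known to lack a poly(A) tail. SPACUNK4.17 rose by 3.173, meu7, which encodes an alpha-amylase homologue, by 2.148, fhn1, a membrane-domain protein, by 1.73, SPBC1271.08c by 1.97 and SPBC11C11.06c by 1.83. For SPBC11C11.06c the highest wild-type value, 87.2 CPM, belonged to the library that stood apart. The antisense RNA of cph1 had 78.9, 68.6, 56.0 and 45.6 CPM against 14.7, 20.5 and 30.8 CPM (log2 fold change 1.56, SE 0.19, adjusted p = 7.4e-04), and cph1 itself, a histone deacetylase complex subunit, was 0.55 higher and not called.

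Antisense and other noncoding RNAs made up 33 and 23 of the 204 higher transcripts. Of 377 antisense RNAs tested, 33 were higher (8.75%) and 8 lower (2.12%), and of 363 other SPNCRNA transcripts 23 were higher (6.34%) and 10 lower (2.75%). Protein-coding genes had 142 of 4719 higher (3.01%) and 53 lower (1.12%). Without the authors' scaling, 65 antisense RNAs were higher and 4 lower, and 42 and 0 of the other SPNCRNA transcripts. The fits that each left out 1 library called 28 to 37 antisense RNAs higher, and 15 other SPNCRNA transcripts without ers1Δ replicate 1. Of the genes on the other strand, 30 of 33 were tested, 0 were called in either direction, and their median log2 fold change was 0.02. Whether the authors counted reads by strand is not given in the sources used here, and without strand a gene and its antisense RNA cannot be told apart. The 2 largest falls were in antisense RNAs: the antisense RNA of mfg1 had 3.38, 4.071, 4.80 and 5.00 CPM against 11.2, 13.9 and 29.01 CPM (log2 fold change -1.77, adjusted p = 0.0010), and that of hsp3102 fell by 1.89.

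**Figure D5:**
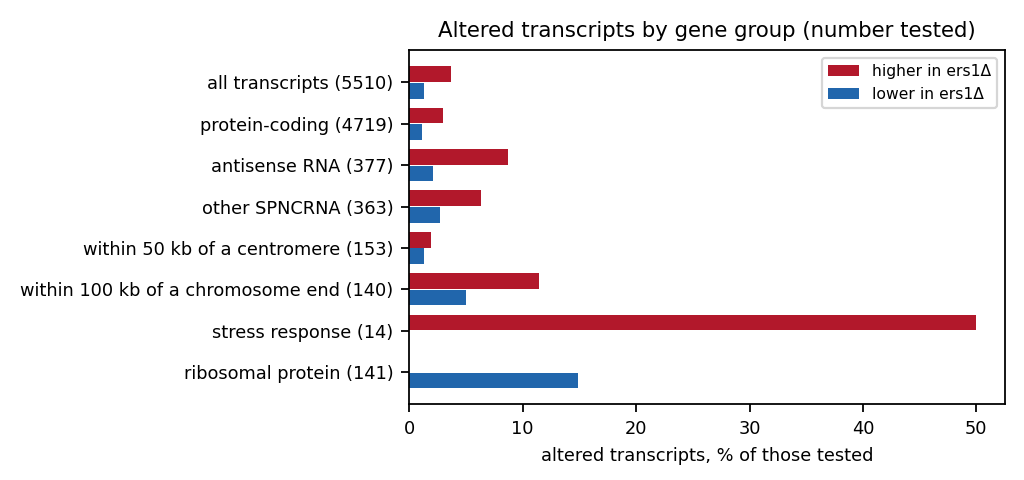
Percentage of tested transcripts called higher (red) or lower (blue) in ers1Δ for 8 gene groups, with the number tested in parentheses. Bars start at 0. The stress list, chosen with earlier results of these data known, stood at 50% higher. Antisense RNAs stood at 8.75% higher and ribosomal protein genes at 14.9% lower, beside 3.7% and 1.29% for all transcripts.

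Among the lower protein-coding genes, gsf2, a flocculin that mediates cell adhesion, had 132, 127, 155 and 245 CPM against 339, 409 and 509.8 CPM. The groups did not overlap, and the log2 fold change was -1.35 (SE 0.18, adjusted p = 0.0012). Pho84, a phosphate transporter, had 511, 335, 463 and 723 CPM against 754, 1198 and 1284 CPM (log2 fold change -1.18, SE 0.20, adjusted p = 0.0052). All ers1Δ values were below wild type there too. In the strains lem2Δ, amo1Δ and mhf2Δ, gsf2 averaged 193, 315 and 254 CPM, all below the lowest wild-type value. Pho84 averaged 635, 913 and 680 CPM in these strains, of which the amo1Δ mean lay within the wild-type range. The lower levels were thus not particular to ers1Δ. Of 6 phosphate genes tested, pho84 and the acid phosphatase gene pho1 (-0.76) were lower and pho7, the transcription factor of this regulon, was higher (0.64). Pho1 lost its call without ers1Δ replicate 3 and pho7 without replicate 1. Oga1 fell by 1.08, the4 by 1.069, the mitochondrial amidotransferase gene her2 by 0.89, the copper amine oxidase gene cao1 by 0.85, SPNCRNA.1673 by 0.87, SPBC8E4.04 by 0.69 and the antisense RNA of SPAC9.08c by 1.33. Like gsf2, these were named on condition that the groups did not overlap, so the lack of overlap is no further result. Over all transcripts 2.74% lay wholly below wild type. SPAPB24D3.02c fell by 0.69 and lost its call without the first ers1Δ replicate.

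Ribosomal protein genes shifted down together by a small amount. All 141 were below 0, with a median log2 fold change of -0.44, and 21 were called lower (14.9%) and 0 higher, beside 1.29% and 3.7% of all transcripts. Rpp102, an acidic stalk protein, had 2554, 3309, 3649 and 3307 CPM against 4296, 5409 and 7301 CPM (log2 fold change -0.79, SE 0.17, adjusted p = 0.017). It averaged 3945 CPM in lem2Δ and 3317 CPM in mhf2Δ, also below the wild-type range, and 5006 CPM in amo1Δ, within it. The count depends on scaling and on the control well, with 29 lower after median centring, 0 without the authors' scaling (median -0.17, 122 of 141 below 0), 0 against well A2 alone and 4 without the first ers1Δ replicate. Leu1, a leucine synthesis gene, had 587, 724, 734 and 628 CPM against 808, 1054 and 1309 CPM and fell by 0.66 (adjusted p = 0.021).

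No factor of RNA interference or heterochromatin was called altered in transcript level. All 12 genes of the RNA interference list, of which ers1 itself is 1, were tested and 0 were called, with a median log2 fold change of 0.02. Dcr1 had 39.97 to 48.3 CPM in ers1Δ and 33.6 to 57.2 CPM in wild type, ago1 15.0 to 19.7 against 12.8 to 23.9 CPM, and rdp1 9.02 to 13.9 against 10.8 to 17.5 CPM. These ranges overlapped throughout. Of the 13 heterochromatin genes 0 were called, with a median of -0.06, and 1 was called lower after median centring. Swi6 had 60.9 to 76.1 against 46.0 to 94.5 CPM, and clr4 11.6 to 21.98 against 11.072 to 21.8 CPM. A change under the fold threshold in these genes would not be called at this depth.

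Other lists held 1 or 2 altered members each or none, where 3.7% of all transcripts were higher. In the mating list, the pheromone precursor gene map2 had 11.3, 8.72, 9.59 and 8.89 CPM against 1.51, 3.05 and 4.62 CPM, without overlap (log2 fold change 1.77, SE 0.27, adjusted p = 0.0025), and ste4, a pheromone signalling adaptor, rose by 0.94 with overlap and lost its call with the replicate block (limma adjusted p = 0.058). These were 2 of 20 tested. Of 6 tested meiotic transcripts that the RNA elimination factor Mmi1 targets, mcp5, a meiotic dynein anchor, was called (1.073, with overlap, adjusted p = 0.069, and lost in 10 of the 12 fits that each left out 1 library). The invertase gene inv1 had 356, 129, 177 and 82.8 CPM against 13.8, 29.1 and 141 CPM, overlapping only through the library that stood apart, and was the 1 called of 7 glucose genes (log2 fold change 2.39, SE 0.52, adjusted p = 0.020). The vacuolar protease gene isp6 was the 1 called of 9 nitrogen genes (0.87, adjusted p = 0.053), and 0 of 9 iron genes were called.

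Transcripts nearly absent in wild type were tested on log2(CPM + 1). On this scale 280 of 5853 were higher (4.78%) and 69 lower (1.18%), of which 76 higher and 2 lower had not been testable before. Testing required 3 reads in any 3 of the 12 libraries, so a transcript near 0 in wild type entered through the ers1Δ libraries in which it was high, and these 76 are a description and no measure of balance. These 76 comprised 35 antisense RNAs, 20 other SPNCRNA transcripts and 21 protein-coding genes. Among them was the antisense RNA of rif1, a telomere and replication timing gene, with 17.5, 23.3, 13.3 and 8.33 CPM against 0, 0.602 and 1.73 CPM (difference 3.40, SE 0.30). SPNCRNA.757, SPNCRNA.750, SPNCRNA.1427 and the antisense RNA of aur1 followed with differences of 2.72, 2.37, 1.84 and 2.88. None of the 5 overlapped with wild type.

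A comparison with the other 93 knockout strains shares no library with the wild-type comparison except those of ers1Δ. In it, 69 of 5853 transcripts were called (1.18%), 65 higher and 4 lower in ers1Δ, and 16 had an adjusted p under 0.05. Testing required reads in the ers1Δ and wild-type libraries only. A transcript near 0 in the other strains could thus enter through ers1Δ, where it was high. The split and the classes of the 65 are therefore a description, and 35 of the 65 were testable in the main fit against wild type. Leaving out ers1Δ replicates 1 to 4 in turn gave 8, 12, 9 and 17 lower, and 28 adjusted without replicate 4. Of the 65, 28 were antisense RNAs, 10 other SPNCRNA transcripts and 26 protein-coding genes, and ers1Δ was the highest of the 94 strains in 27. The strain mhf2Δ was the highest other strain in 36 of the 65 and exceeded ers1Δ in 25. The antisense RNA of rif1 averaged 25.6 CPM in mhf2Δ and 15.6 CPM in ers1Δ, and hsp16 averaged 3919 and 4646 CPM. In contrast, SPNCRNA.231 and SPNCRNA.373 had 0 reads in mhf2Δ, and cta3 averaged 5.11 CPM there. Besides SPNCRNA.359, cta3 and ecl1, the sterol desaturase gene erg32 and SPBC1773.03c were both highest in ers1Δ and under the adjusted threshold. SPNCRNA.231 was highest too and is 1 of the 16, but its test is not used because most other strains were at 0.

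Direct comparisons were made with the strains labelled lem2Δ, for an inner nuclear membrane protein, and amo1Δ, for a nuclear rim protein. Both proteins are linked to silencing at the nuclear envelope. Reads assigned to lem2 itself were lower in ers1Δ than in lem2Δ (log2 fold change -2.96, limma adjusted p = 5.1e-04), the smallest p of that comparison. These reads therefore do not check the lem2Δ label. Against lem2Δ, 92 of 5602 transcripts were higher in ers1Δ (1.64%) and 57 lower (1.02%), 45 of them with an adjusted p under 0.05, or 19, 22 and 17 without ers1Δ replicate 1, 2 or 3 in turn, and 58 higher without replicate 1. Against amo1Δ, 232 of 5542 were higher (4.19%) and 83 lower (1.5%), 138 of them with an adjusted p under 0.05, a number that fell to 0 without the second ers1Δ replicate (limma, with 153 higher and 56 lower still past the unadjusted thresholds), to 6 without the first, to 73 without replicate 3 and to 79 without replicate 4. Ecl1 was higher than in lem2Δ by 2.85 and than in amo1Δ by 3.79, cta3 by 2.97 and 3.79, meu7 by 2.61 and 1.81, and the antisense RNA of cph1 by 1.56 and 1.92, each with an adjusted p under the threshold. Hsp16 was higher by 3.62 (adjusted p = 0.036) and 4.15 (adjusted p = 0.042). SPNCRNA.359 averaged 2.38 CPM in lem2Δ and 2.98 CPM in amo1Δ. SPNCRNA.359 passed against lem2Δ (log2 fold change 1.77, limma adjusted p = 0.0496) and not against amo1Δ (1.28, limma adjusted p = 0.19). The lowest amo1Δ library, at 0.746 CPM, was under the cutoff and did not enter that fit, though the mean includes it. The lowest lem2Δ library, at 1.42 CPM, did enter. SPNCRNA.231 had 0 reads in all 8 libraries of these strains, and gsf2 did not pass in either comparison.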

How the data were processed

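The libraries were 3′ messenger RNA libraries (Lexogen FWD kit, single-end 75-base reads) of 94 knockout strains and wild type. Per the labels, reads were processed with STAR 2.6.1b, SAMtools 1.5, Subread 1.6.2 and HTSeq 0.9.0 against build ASM294v2. The authors deposited 1 table of CPM values, reads scaled to a common library size, for 7259 genes in 384 libraries, scaled between libraries. In the deposited file the decimal point is absent from values above 1 (78.8% of 2787456 values), so the other unit was recorded for it. The point was restored from the step that 1 read is worth in each library, and 0 values stayed unresolved. Several positions were possible for 9.64%, and the most probable given the gene's level in the other libraries of its group was taken. Such values were thus placed towards their own group, among them ecl1 in ers1Δ replicates 1, 3 and 4. Without them the fit against wild type gave 177 higher, 55 lower and 158 with an adjusted p under 0.05. On simulated data 22 of 87108 values (0.0253%) were restored wrongly. Depth was recovered the same way. Identifiers matched RefSeq (ASM294v3) for 6846 genes, whose coordinates are printed, and 5171 genes overlap another.

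Values under the study's cutoff, just above 1 CPM, were removed, and a transcript was tested when kept in at least 3 of 4 ers1Δ and 6 of 8 wild-type libraries. Log2 CPM were compared with limma 3.58.1 in R 4.3.3 with Benjamini-Hochberg adjustment. The imputation of missing values described in the study was not run, and a missing value stayed missing. Transcripts under the cutoff and strain means were tested on log2(CPM + 1), with at least 3 reads in 3 of the 12 ers1Δ and wild-type libraries. On that scale the fold understates the change of low transcripts. The script was checked on simulated data. Same-numbered ers1Δ and wild-type libraries deviated together (correlations of 0.106 to 0.359 over 5172 transcripts), every pair above 0.1, so the replicate number was taken as pairing them. Libraries with different numbers ranged from -0.319 to 0.253, and ers1Δ replicate 1 correlated more with both well A2 libraries numbered 2 (0.196 and 0.253) than with its own number (0.134). Only the block fits used this pairing, and the other fits and the permutation tests did not. The block fit against wild type left out both well A2 libraries numbered 2. Named genes were the deleted gene and neighbours within 5 kb, the 12 higher and 12 lower altered transcripts without overlap and with the smallest p, the 6 with the smallest p among those under the cutoff, up to 6 called members of each list, and all tested RNA interference and heterochromatin genes. The chaperone list, erg32, hsp90, ssa2 and genes named beside motifs were added after their values were seen. The strain and the lists were chosen with earlier results of these data known. Alternatives covered the cutoff, pseudocount, scaling, model, block, control well and each library.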

Additional observations from a re-analysis of the deposited data

Results flagged for a closer look

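Of 196 groups of 4 or 8 libraries examined for a single library far from the rest, 18 were singled out, where chance alone gives about 1 in 20. In ers1Δ, pma2 was low in replicate 2 (0.582 CPM), rik1 high in replicate 3 (12.3 CPM) and SPNCRNA.364 high in replicate 4 (0.556 CPM, a single read). In wild type, the well A2 library labelled wt2 with number 2 was highest for hsp9 (579 CPM), SPBC11C11.06c (87.2 CPM), inv1 (141 CPM) and SPNCRNA.359 (4.042 CPM). The other well A2 library with number 2 was highest for SPNCRNA.231, SPNCRNA.1427 and SPNCRNA.362, each at 0.583 CPM from 1 read, and lowest for clr4 (11.072 CPM). The well A1 library with number 2 was lowest for pcm2 (0 CPM) and SPAC15E1.02c (3.85 CPM) and highest for tas3 (26.9 CPM). In the remaining wild-type libraries, mfg1-antisense-1 was high in well A1 number 4 (29.01 CPM), hrr1 low in well A1 number 1 (11.4 CPM), SPNCRNA.232 high in well A2 number 3 (0.757 CPM) and SPNCRNA.372 high in well A2 number 4 (0.470 CPM).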

How the results depend on the processing

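Against wild type, the 204 higher and 71 lower transcripts and the 222 past the same fold threshold with an adjusted p under 0.05, without the unadjusted threshold, moved as follows. Without the authors' scaling there were 499, 8 and 555. Against well A2 alone there were 131, 28 and 55, and against well A1 alone 108 had an adjusted p under 0.05. That number was 334 without a filter on low values, 353 with limma voom on the restored reads and 347 with the replicate block. The same 10 libraries without the block gave 257. Leaving out 1 library at a time gave 137 to 232 higher, 48 to 90 lower and 86 to 269 adjusted (86 to 230 over the 4 ers1Δ libraries), with 86 when ers1Δ replicate 1 and 137 when replicate 3 was left out. On log2(CPM + 1) the ranges were 196 to 313, 48 to 83 and 163 to 364 (163 to 319 over the ers1Δ libraries). Against the other knockouts they were 53 to 93, 8 to 17 and 12 to 28, and a pseudocount of 0.5 CPM gave 7 adjusted. Against lem2Δ they were 58 to 95, 41 to 45 and 17 to 35, with 20 adjusted under the replicate block. Against amo1Δ they were 141 to 221, 47 to 103 and 0 to 79, and the replicate block gave 147 lower and 363 adjusted. For the ers1 gene the log2 fold change ranged from 0.23 to 0.55. The cause of these moves was not tested. Over 53 called named transcripts and 26 settings, 1263 of 1358 values kept their direction and call, 95 lost the call, 18 of them against well A2 alone, and 0 reversed. The replicate block ended the calls of ste4 and SPNCRNA.935 and no other among these. At 1478173 reads or more per library, 3 reads were worth up to 2.27 CPM, and 17 of the 27 centromeric RNAs had no read in either group.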
